A study of Mus musculus with 4 samples.

Results

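The 8 genes described here are the mouse secretory Rab GTPases of the Rab3 subfamily (Rab3a, Rab3b, Rab3c and Rab3d), the Rab27 subfamily (Rab27a and Rab27b) and the related pair Rab26 and Rab37, out of 17621 genes in the deposited files. They were chosen by name, with earlier results of these data known, so their values are given as a description with no test. Of the 8, 7 had an average of at least 1 CPM (counts per 1000000, after scaling of the libraries) over the libraries, and Rab37 did not. RNA came from primary neural stem cells of the cortex of newborn mice, sequenced to ask how depletion of the nucleoporin Seh1 alters gene expression during proliferation and differentiation.

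There were 4 libraries, 1 in each of 4 groups. At day 3, after EGF and bFGF had been withdrawn, the groups were iKO and Ctrl. At day 0, in growth medium with both factors, they were again iKO and Ctrl. The genotype of the iKO libraries is labelled cmv-cre-ert,seh1 f/f, that is, floxed Seh1 alleles with a Cre recombinase fused to an estrogen receptor domain under a CMV promoter. The Ctrl libraries are labelled Seh1 f/f, so all 4 libraries carry the floxed alleles and the label of the Ctrl libraries names no recombinase. The age of the mice is newborn in all groups, and the sources used here do not say whether an inducer was added. Totals were 19611788 expected counts for iKO and 19745921 for Ctrl at day 3, and 20625897 for iKO and 21040590 for Ctrl at day 0. The targeted gene Seh1l had 11.03 CPM in iKO and 33.2 CPM in Ctrl at day 3, and 19.2 CPM in iKO and 40.3 CPM in Ctrl at day 0, which was 3.01-fold lower (2.58 to 3.54) and 2.10-fold lower (1.86 to 2.37) in iKO. Markers of neural stem and progenitor cells were detected in every library, with none of the 8 at 0 and a summed level between 6872 and 10322 CPM. The 7 astrocyte markers summed to 15666 CPM in iKO and 9258 CPM in Ctrl at day 3, and 1363 CPM in iKO and 555.6 CPM in Ctrl at day 0. Most of each day 3 sum was Apoe, with 12096 CPM in iKO and 6765 CPM in Ctrl. At day 0 Apoe had 656 CPM in iKO and 138 CPM in Ctrl. Aldh1l1 went the other way at day 3, with 567 CPM in iKO and 797 CPM in Ctrl. The 8 markers of the oligodendrocyte lineage summed to 3441 CPM in iKO and 4719 CPM in Ctrl at day 3, and 4113 CPM in iKO and 4647 CPM in Ctrl at day 0. The summed level of 5 microglial markers was at most 8.81 CPM and that of 4 endothelial markers at most 2.33 CPM. A single library per group gives no measure of spread between cultures, so differences are described without p-values.

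Rab GTPases are small switch proteins that bind GTP in their active state and GDP in their inactive state. Exchange factors load them with GTP, activating proteins make them hydrolyse it, and a lipid anchor added by geranylgeranyl transferase holds them on vesicle membranes. Rab3 and Rab27 proteins mark vesicles and granules for regulated exocytosis, where their effectors (RIM, rabphilin and synaptotagmin-like proteins) tether the vesicle near the plasma membrane for SNARE-mediated fusion. Rab3a is the main Rab3 protein of synaptic vesicles, and Rab26 and Rab37 have been found on secretory granules.

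The coding stretches around the P-loop, the loop that holds the phosphates of the bound nucleotide, show how closely the members are related, and they bear on whether reads could be shared among them. Each is 60 bases, 5′ to 3′, from GENCODE M21 transcripts (GRCm38), with the codons of the P-loop in capitals.
Rab3a: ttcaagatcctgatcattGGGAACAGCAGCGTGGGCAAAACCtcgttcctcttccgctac
Rab3b: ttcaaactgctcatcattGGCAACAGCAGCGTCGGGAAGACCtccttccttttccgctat
Rab3c: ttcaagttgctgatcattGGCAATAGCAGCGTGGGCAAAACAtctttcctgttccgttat
Rab3d: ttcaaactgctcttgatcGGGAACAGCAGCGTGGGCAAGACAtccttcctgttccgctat
Rab26: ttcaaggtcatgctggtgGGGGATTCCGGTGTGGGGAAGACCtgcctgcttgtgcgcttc
Rab27a: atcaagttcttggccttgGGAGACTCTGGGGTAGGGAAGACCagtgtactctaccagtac
Rab37: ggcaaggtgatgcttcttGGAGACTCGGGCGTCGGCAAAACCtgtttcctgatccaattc
The stretches of Rab26 and Rab37 span an intron. That of Rab27b is not printed here. Over the whole coding sequence, pairs of Rab3 genes were identical at 74.4% to 77.8% of aligned bases, Rab26 and Rab37 at 72.0%, and Rab27a and Rab27b at 69.5%. The longest run of identical bases between any pair of members was 33 bases, between Rab3b and Rab3d, and no window of 50 bases was shared between members. Windows of 50 bases shared with transcripts of other genes made up 8.04% of Rab3b (the noncoding gene 8030443G20Rik on the opposite strand) and 7.03% of Rab26 (Traf7, a neighbour on the same strand). Rab27a shared 4.39% of its windows with 309 other genes, Rab3c 0.799% with 141 and Rab27b 0.346% with 290, while Rab3a, Rab3d and Rab37 shared none. The sources used here give neither a strand setting nor a read length, so reads from such overlaps cannot be told apart.

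Rab26, which lies at chr17:24529054-24533747 (GRCm38), was the member with the widest range over the libraries, 6.69 on the log2(CPM + 1) scale, the third widest of the 12976 genes compared. Its protein has been placed on secretory granules and on synaptic vesicles taken up by autophagy. Rab26 had 46 counts (2.44 CPM) in iKO and 5 counts (0.249 CPM) in Ctrl at day 3, against 2791 counts (128 CPM) in iKO and 2443 counts (120 CPM) in Ctrl at day 0. The day 0 libraries were both high, the day 3 libraries both low, and the day 3 Ctrl library was near the floor of 3 counts (0.149 CPM). Rab26 was 52.5-fold lower (39.3 to 71.9) at day 3 than at day 0 in iKO, and 483-fold lower (207 to 1489) in Ctrl. These and all intervals given here are exact 95% intervals of counting error, with the counts of both libraries taken as given, and they and the floor cover counting error only. At day 3 Rab26 was 9.80-fold higher (3.91 to 31.6) in iKO than in Ctrl, a log2 ratio of 1.46 with 1 CPM added to each level, while at day 0 the iKO level was 1.07-fold that of Ctrl (1.01 to 1.13). Its log2 ratio of day 3 to day 0 was the lowest of all 12976 genes in Ctrl (-6.60) and the second lowest in iKO (-5.23). With 5 CPM added in place of 1 the ratio of iKO to Ctrl at day 3 was 0.50 on the log2 scale, below the 2-fold threshold.

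Traf7, whose RefSeq span lies 1116 bases from that of Rab26, had 121 CPM in iKO and 118 CPM in Ctrl at day 3, and 180 CPM in iKO and 204 CPM in Ctrl at day 0. The spans do not overlap, although 7.03% of the Rab26 windows were shared with Traf7 transcripts, as given above. In these bulk cultures, fewer cells of a type and less RNA per cell cannot be told apart for any gene.

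Rab3b (chr4:108879070-108943324) followed the same order of libraries at a higher level. It encodes a Rab3 protein known from neuroendocrine and epithelial cells as well as neurons. Rab3b had 834 counts (44.2 CPM) in iKO and 320 counts (15.9 CPM) in Ctrl at day 3, against 10571 counts (485 CPM) in iKO and 6930 counts (341 CPM) in Ctrl at day 0. Both day 0 libraries lay far above both day 3 libraries, and at each day iKO was above Ctrl. The level at day 3 was 10.97-fold lower (10.2 to 11.8) than at day 0 in iKO and 21.4-fold lower (19.1 to 24.0) in Ctrl. Rab3b was 2.78-fold higher (2.44 to 3.17) in iKO than in Ctrl at day 3 and 1.42-fold higher (1.38 to 1.47) at day 0, the second below the 2-fold threshold used here for calling a gene higher or lower. Among the 53 Rab genes compared, Rab26 and Rab3b had the lowest and second lowest log2 ratios of day 3 to day 0 in both genotypes. The 7 astrocyte markers differed between the same libraries in the other direction. At day 3, 6 were higher and 0 lower than at day 0 in iKO (median log2 ratio 3.40), beside 11.2% and 11.4% of all genes. In Ctrl 7 were higher and 0 lower (median 3.77), beside 14.6% and 15.1% of all genes. The part of this shift in the Rab26 and Rab3b values was not tested.

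**Figure D1:**
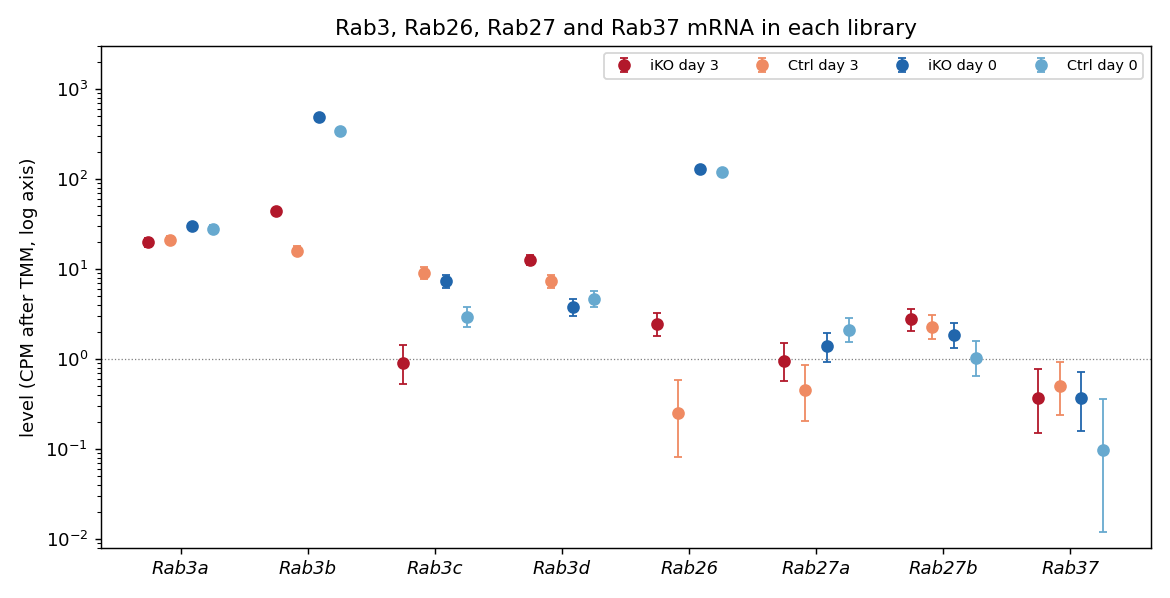
Level of each of the 8 genes in the 4 libraries (y axis, CPM after TMM scaling, log axis). Points are single libraries, bars are 95% counting intervals, and the dotted line marks 1 CPM. Rab26 and Rab3b stand at 120 to 485 CPM in the day 0 libraries and at 0.249 to 44.2 CPM in the day 3 libraries, while Rab3a stays between 19.7 and 30.1 CPM.

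The 300 bases around the annotated start of Rab3b, the member with the highest level at day 0, are set beside those of Rab3a, whose level differed little between libraries. Both are RefSeq promoter windows (GRCm38.p6, plus strand) and lie at chr4:108878820-108879119 and chr8:70754453-70754752. Capitals mark the E box CANNTG, the GC box CCGCCC and the TATA box TATAAA on either strand. The AP-1 motif TGANTCA and the cyclic AMP response element TGACGTCA were also searched on both strands and had no match in either window.
Rab3b: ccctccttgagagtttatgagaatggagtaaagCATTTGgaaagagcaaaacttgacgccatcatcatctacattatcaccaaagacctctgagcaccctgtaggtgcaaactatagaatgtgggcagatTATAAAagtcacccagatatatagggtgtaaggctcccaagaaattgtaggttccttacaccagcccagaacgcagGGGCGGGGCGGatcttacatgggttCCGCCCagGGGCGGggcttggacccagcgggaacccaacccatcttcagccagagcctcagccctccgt
Rab3a: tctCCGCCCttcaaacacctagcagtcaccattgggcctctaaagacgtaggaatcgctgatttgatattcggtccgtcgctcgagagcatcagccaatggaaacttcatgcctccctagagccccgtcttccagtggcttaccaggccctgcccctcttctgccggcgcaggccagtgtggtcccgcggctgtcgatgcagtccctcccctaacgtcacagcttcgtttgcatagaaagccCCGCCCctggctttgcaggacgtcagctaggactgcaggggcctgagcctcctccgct
The Rab3b sequence held 1 CANNTG, 1 TATAAA and 4 matches to CCGCCC, of which 2 overlap each other, and 8 CpG dinucleotides, against 0, 0 and 2 matches and 18 CpG dinucleotides in that of Rab3a. RefSeq gives Rab3a a second window, at chr8:70754852-70755151, which is not printed and held 3 CANNTG, 0 CCGCCC, 0 TATAAA and 22 CpG dinucleotides. Of 32851 promoters of the same length, 72.3% held CANNTG, 35.7% CCGCCC, 13.6% TATAAA, 7.81% TGANTCA and 1.79% TGACGTCA, and the median number of CpG dinucleotides was 7. A match is a description of letters in this window. Entries were found for 5 of the members: Rab3a, Rab3b, Rab3c, Rab3d and Rab27a.

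Rab3c (chr13:110054187-110280996), which encodes a second Rab3 protein of synaptic vesicles, had iKO to Ctrl ratios of opposite sign at the 2 days. Rab3c had 17 counts (0.901 CPM) in iKO and 181 counts (9.003 CPM) in Ctrl at day 3, against 158 counts (7.25 CPM) in iKO and 60 counts (2.95 CPM) in Ctrl at day 0. The day 3 iKO library was the lowest and the day 3 Ctrl library the highest. Rab3c was 9.99-fold lower (6.07 to 17.5) in iKO than in Ctrl at day 3, and 2.46-fold higher (1.81 to 3.36) in iKO than in Ctrl at day 0. At day 3 its level was 8.05-fold lower (4.87 to 14.2) than at day 0 in iKO and 3.05-fold higher (2.27 to 4.16) in Ctrl. The log2 ratio of iKO to Ctrl was -2.40 at day 3 and 1.06 at day 0, and the difference between them, -3.46, was the 10th lowest of all genes compared and the lowest of the Rab genes.

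The deposited FPKM values, which divide each transcript's count by its length, gave smaller differences for Rab3c than CPM did. Summed over its 4 RefSeq transcript models, Rab3c had 0.25 FPKM in iKO and 1.13 FPKM in Ctrl at day 3, and 1.35 FPKM in iKO and 1.05 FPKM in Ctrl at day 0. With nothing added to the FPKM the log2 ratio of iKO to Ctrl was -2.18 at day 3, past 2-fold, and 0.36 at day 0, and that of day 3 to day 0 was -2.43 in iKO and 0.11 in Ctrl. With 1 FPKM added, which is large beside these levels, the ratio of iKO to Ctrl was -0.77 at day 3 and 0.20 at day 0. The estimated counts were spread over different models in each library. A single RefSeq model took 13.73 of the expected counts of Rab3c in iKO and 107.57 in Ctrl at day 3, and 74.3 in iKO and 1.42 in Ctrl at day 0. A shorter model took 3.38 in iKO and 1.5 in Ctrl at day 3, and 10.94 in iKO and 17.3 in Ctrl at day 0. How reads from overlapping models were divided is uncertain. The summed counts do not depend on it, and the summed FPKM do, because the models differ in length.

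Neuronal markers were read beside Rab3c, a gene of neurons. Of 8 such markers, 5 were at least 2-fold lower and 0 higher in iKO than in Ctrl at day 3, with a median log2 ratio of -1.39, where 4.76% of all genes were lower, and their summed level was 999.6 CPM in iKO and 1864 CPM in Ctrl. At day 0, 1 was higher and 0 lower in iKO, with a median of 0.38, where 2.67% of all genes were higher, but the sum was lower in iKO (948 CPM) than in Ctrl (996 CPM). Most of each sum was Map2, with 871 CPM in iKO and 1459 CPM in Ctrl at day 3. At day 0 Map2 had 791 CPM in iKO and 879 CPM in Ctrl. None of the 8 was at 0 in any library. Dcx, which encodes a microtubule protein of young neurons, had 15.4 CPM in iKO and 147 CPM in Ctrl at day 3, and 17.02 CPM in iKO and 9.10 CPM in Ctrl at day 0. Markers of the oligodendrocyte lineage also differed between these libraries. Their log2 ratios of iKO to Ctrl ran from -6.41 (Gpr17) to -0.05 (Olig1) at day 3. At day 0 they ran from -1.53 (Sox10) to 0.02 (Cspg4). The part of neuronal or oligodendrocyte lineage content in the Rab3c values was not tested.

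Rab3a (chr8:70754703-70758608), the gene of the main synaptic vesicle Rab3 protein, differed least among the members above 1 CPM. Rab3a had 371 counts (19.7 CPM) in iKO and 425 counts (21.1 CPM) in Ctrl at day 3, against 656 counts (30.1 CPM) in iKO and 571 counts (28.1 CPM) in Ctrl at day 0. All 4 libraries lay within a range of 0.59 on the log2(CPM + 1) scale. The iKO level was 0.930-fold that of Ctrl at day 3 (0.807 to 1.07) and 1.07-fold at day 0 (0.957 to 1.20), both intervals taking in equal levels. At day 3 the level was 1.53-fold lower (1.35 to 1.74) than at day 0 in iKO and 1.33-fold lower (1.17 to 1.51) in Ctrl. The division of its reads between transcript models was less even, since the model that took 529.08 expected counts in iKO and 321.36 in Ctrl at day 0 took 0 in iKO and 335.74 in Ctrl at day 3. Another model took 327.16 in iKO and 71.23 in Ctrl at day 3, and 97.63 in iKO and 188.32 in Ctrl at day 0.

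Rab3d (chr9:21907491-21918199), known from zymogen granules of exocrine cells, was the member with the highest log2 ratio of day 3 to day 0 in iKO (1.52). Rab3d had 238 counts (12.6 CPM) in iKO and 147 counts (7.31 CPM) in Ctrl at day 3, against 82 counts (3.76 CPM) in iKO and 94 counts (4.62 CPM) in Ctrl at day 0. The 2 day 3 libraries were above both day 0 libraries. The day 3 level was 3.35-fold that of day 0 in iKO (2.60 to 4.36) and 1.58-fold in Ctrl (1.21 to 2.07). The iKO level was 1.73-fold that of Ctrl at day 3 (1.40 to 2.13), below the 2-fold threshold, and 0.814-fold at day 0 (0.598 to 1.11).

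Both Rab27 genes were near the limit of what this depth can compare. Rab27a (chr9:73044810-73097623), needed for the transport of melanosomes and for the release of lytic granules, had 18 counts (0.954 CPM) in iKO and 9 counts (0.448 CPM) in Ctrl at day 3, against 30 counts (1.38 CPM) in iKO and 43 counts (2.11 CPM) in Ctrl at day 0. The fold of iKO over Ctrl was 2.13 (0.909 to 5.39) at day 3 and 0.651 (0.394 to 1.06) at day 0, both intervals taking in equal levels. In Ctrl the day 3 level was 4.72-fold lower (2.27 to 11.02) than at day 0, and in iKO it was 1.44-fold lower (0.779 to 2.75). The log2 ratio in Ctrl was -1.11 with 1 CPM added to each level. In FPKM it was -2.30 with nothing added and -0.54 with 1 FPKM added.

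Rab27b (chr18:69979131-70141633), known from granules of platelets and mast cells, had 52 counts (2.76 CPM) in iKO and 46 counts (2.29 CPM) in Ctrl at day 3, against 40 counts (1.84 CPM) in iKO and 21 counts (1.03 CPM) in Ctrl at day 0. The day 3 libraries were the higher ones. The iKO level was 1.20-fold that of Ctrl at day 3 (0.794 to 1.83) and 1.78-fold at day 0 (1.02 to 3.17), and the day 3 level was 1.502-fold that of day 0 in iKO (0.975 to 2.33) and 2.22-fold in Ctrl (1.30 to 3.91). With 1 CPM added its log2 ratios stayed under 1 in every comparison. Markers of melanocytes, where Rab27a is best known, had a summed level of 14.2 CPM in iKO and 12.3 CPM in Ctrl at day 3, and 8.30 CPM in iKO and 5.26 CPM in Ctrl at day 0, of which Mitf alone held 10.5 CPM in iKO and 5.82 CPM in Ctrl at day 3, and 5.64 CPM in iKO and 2.75 CPM in Ctrl at day 0. Mlana and Tyrp1 were each at 0 in 3 of the libraries. At day 3 Tyr had 1.06 CPM in iKO and 2.34 CPM in Ctrl, and Pmel 2.17 CPM in iKO and 3.23 CPM in Ctrl. Dct had 0.212 CPM in iKO and 0.895 CPM in Ctrl at day 3, and Tyrp1 0.212 CPM in iKO and 0 CPM in Ctrl.

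Rab37 (chr11:115091331-115162773), known from mast cell granules, was the member below the minimum. It had 7 counts (0.371 CPM) in iKO and 10 counts (0.497 CPM) in Ctrl at day 3, against 8 counts (0.367 CPM) in iKO and 2 counts (0.0984 CPM) in Ctrl at day 0. The day 0 Ctrl library lay under the floor of 0.148 CPM. The folds of iKO over Ctrl, 0.746 (0.241 to 2.17) at day 3 and 3.73 (0.745 to 36.1) at day 0, had intervals that take in equal levels, so a difference was not detectable at this depth.

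**Figure D2:**
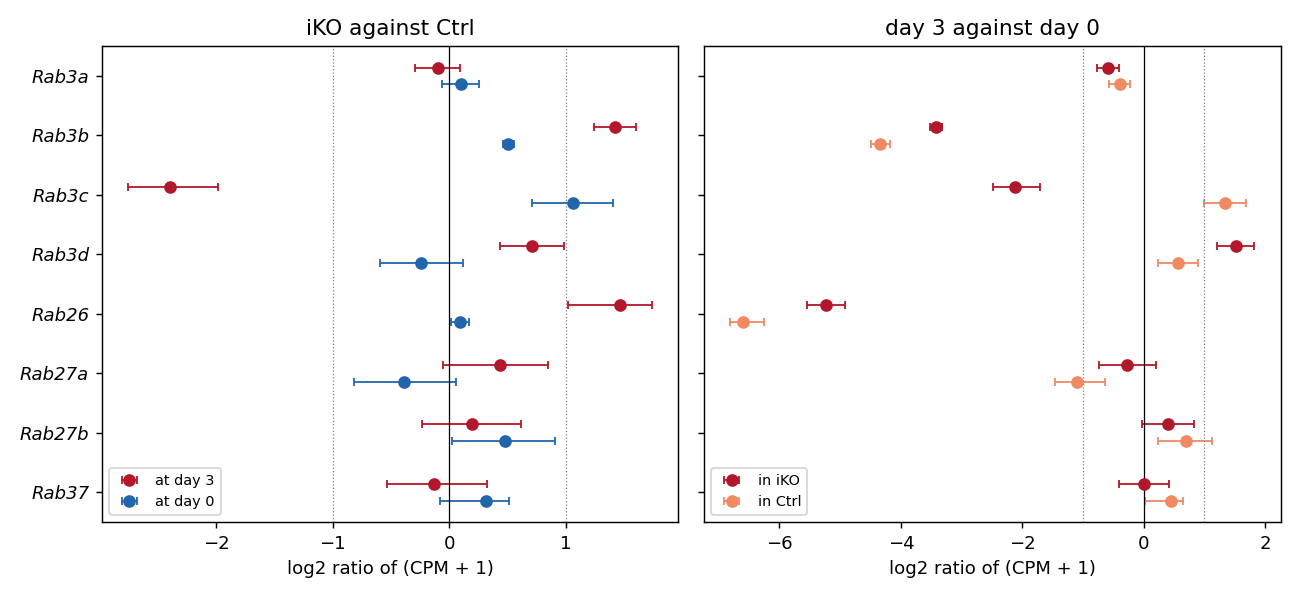
Log2 ratio of (CPM + 1) for each of the 8 genes, iKO against Ctrl at each day on the left and day 3 against day 0 in each genotype on the right (x axes). Points are ratios between single libraries, bars are 95% counting intervals, and dotted lines mark 2-fold. Rab3c lies at -2.40 at day 3 and at 1.06 at day 0 on the left, and Rab26 lies at -5.23 in iKO and -6.60 in Ctrl on the right.

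Counted together, 2 of the 7 members compared were at least 2-fold higher in iKO than in Ctrl at day 3 (Rab3b and Rab26) and 1 was lower (Rab3c), on the scale of log2(CPM + 1). Of all 12976 genes compared, 6.27% were higher and 4.76% lower. At day 0, 1 member was higher in iKO (Rab3c) and 0 were lower, where 2.67% of all genes were higher and 0.331% lower. Between day 3 and day 0, 1 member was higher in iKO (Rab3d) and 3 were lower (Rab3b, Rab3c and Rab26), where 11.2% of all genes were higher and 11.4% lower, or 932 higher and 1474 lower with FPKM and 1 FPKM added in place of the main 1459 and 1485. In Ctrl, 1 was higher (Rab3c) and 3 were lower (Rab3b, Rab26 and Rab27a), where 14.6% of all genes were higher and 15.1% lower. For the iKO to Ctrl log2 ratio at day 3 minus that at day 0, 1 member was past 1 (Rab26, at 1.37) and 1 past -1 (Rab3c). The shares of all genes there were 3.71% and 5.50%, 482 and 714 genes, or 298 and 960 with library totals and 219 and 617 with 1 added to FPKM. Because the members were chosen with such values in view, nothing is read from these counts. The iKO and Ctrl comparisons of days share libraries with the comparisons of genotype.

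Compared per length, the members changed order between the days. The 2 most abundant at day 0 were Rab3b, with 153.55 FPKM in iKO and 98.65 FPKM in Ctrl, and Rab26, with 95.25 FPKM in iKO and 81.71 FPKM in Ctrl, followed by Rab3a with 22.16 FPKM in iKO and 18.9 FPKM in Ctrl. Their counting intervals did not overlap. At day 3 Rab3a led with 13.16 FPKM in iKO and 15.03 FPKM in Ctrl, and Rab3b followed with 12.76 FPKM in iKO and 4.87 FPKM in Ctrl. These 2 neighbours overlapped in iKO and lay apart in Ctrl. Rab3d came next, with 3.14 FPKM in iKO and 1.94 FPKM in Ctrl. Rab26 stood at 1.65 FPKM in iKO and 0.18 FPKM in Ctrl at day 3, so that it came after Rab3d in iKO and, in Ctrl, was not apart from its neighbours Rab37 and Rab27a. Rab27a, Rab27b and Rab37 were each at or below 0.64 FPKM in every library. Rab26 and Rab3b together made up 45.4% of the summed FPKM of the 8 genes in iKO and 21.2% in Ctrl at day 3, against 90.7% in iKO and 89.2% in Ctrl at day 0. The sums were 31.76 FPKM in iKO and 23.83 FPKM in Ctrl at day 3, and 274.25 FPKM in iKO and 202.3 FPKM in Ctrl at day 0.

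The authors' deposited table for day 3 lists 1774 genes and holds 3 of the members, with a log2 ratio of iKO to Ctrl of 1.39 for Rab3b, -2.19 for Rab3c and 3.20 for Rab26. The FDR in the authors' deposited table was 4.15e-53 for Rab3b, 7.64e-35 for Rab3c and 4.26e-09 for Rab26, and it compares 2 libraries and not the spread between cultures. The ratios of the summed FPKM computed here were 1.39, -2.18 and 3.20 on the log2 scale with nothing added. The authors' deposited table for day 0 lists 103 genes and none of the members. The smallest log2 ratio listed was 1.00 in size at each day, so the lists leave out genes with smaller ratios. Whether the limit on FDR was alike at both days was not checked.

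The other 51 Rab genes, of which 46 had a mean of at least 1 CPM, are set beside them. Of the 46, 3 were at least 2-fold higher and 1 lower at day 3 than at day 0 in iKO, with a median log2 ratio of 0.39, and 4 were higher and 0 lower in Ctrl, with a median of 0.28. The medians over all genes were -0.01 in iKO and -0.02 in Ctrl, and 11.2% were higher and 11.4% lower in iKO, and 14.6% and 15.1% in Ctrl. The 3 highest of the 46 in iKO were Rab7b (2.60), Rab29 (1.84) and Rab30 (1.80), and the lowest were Rab15 (-1.91), Rab9b (-0.79) and Rab33a (-0.63). In Ctrl the highest were Rab30 (2.03), Rab7b (1.71) and Rab36 (1.49), and the lowest Rab28 (-0.78), Rab15 (-0.69) and Rab38 (-0.58).

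Between genotypes, Rab7b, a late endosomal Rab, stood highest among the other Rab genes at both days. Rab7b had 25.7 CPM in iKO and 3.23 CPM in Ctrl at day 3, and 3.40 CPM in iKO and 0.295 CPM in Ctrl at day 0, a fold of 7.95 (6.13 to 10.5) at day 3 and 11.5 (5.04 to 32.4) at day 0. Rab33a, a Golgi Rab, had 1.54 CPM in iKO and 7.36 CPM in Ctrl at day 3, and 2.94 CPM in iKO and 8.02 CPM in Ctrl at day 0, and was the lowest of them at both days. It was 4.79-fold lower (3.20 to 7.40) in iKO at day 3 and 2.73-fold lower (2.03 to 3.70) at day 0. Of the 46, 3 were higher and 3 lower in iKO at day 3, beside 6.27% and 4.76% of all genes. Rab29 (1.48) and Rab31 (1.05) were also higher and Rab15 (-1.48) and Rab9b (-1.16) also lower. At day 0, 1 was higher and 1 lower, beside 2.67% and 0.331% of all genes. Rab36 (0.86) and Rab40b (0.64) were next at the top and Rab28 (-0.37) and Rab9 (-0.35) next at the bottom.

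**Figure D3:**
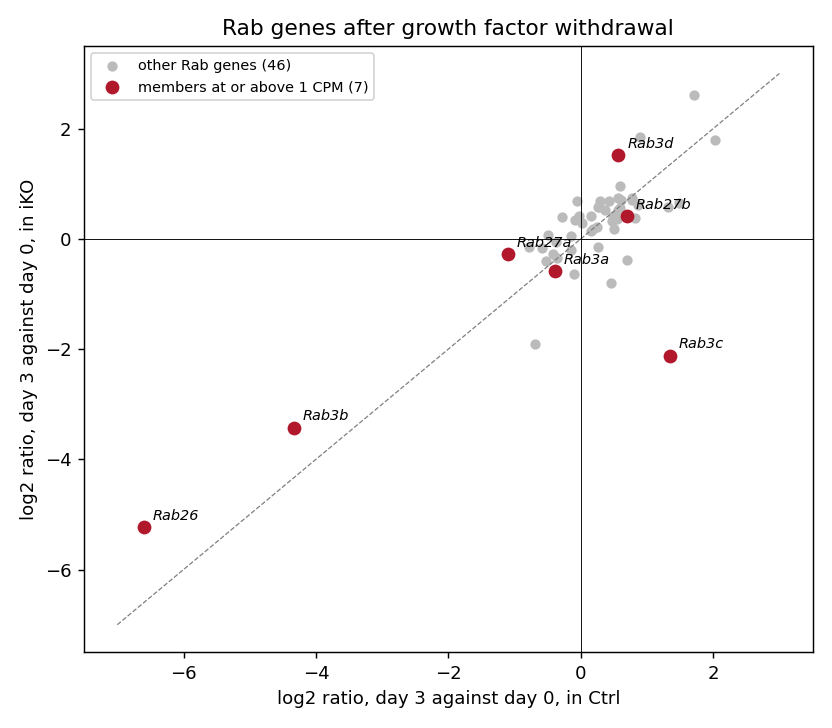
Log2 ratio of day 3 to day 0 in Ctrl (x axis) and in iKO (y axis) for the 53 Rab genes compared. Each point is 1 gene, red for the 7 members and grey for the other 46, and the dashed line marks equal ratios. Rab26 and Rab3b lie at the lower left, and Rab3c lies at -2.12 in iKO and 1.34 in Ctrl.

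Effectors of Rab3 and Rab27 and their relatives were counted next, from 15 genes of which 9 had a mean of at least 1 CPM. The list holds Rims3 and Rims4, short RIM proteins that lack the Rab3-binding domain. In iKO against Ctrl at day 3, 2 were at least 2-fold higher, 3 lower, and the median log2 ratio was -0.47, beside -0.01 over all genes. The shares of all genes were 6.27% higher and 4.76% lower. Rph3a, which encodes rabphilin, had 16.3 CPM in iKO and 56.2 CPM in Ctrl at day 3, and 31.0 CPM in iKO and 23.6 CPM in Ctrl at day 0. It was 3.45-fold lower (3.04 to 3.93) in iKO at day 3 and 1.31-fold higher (1.17 to 1.48) at day 0, so the day 3 Ctrl library was its highest, as for Rab3c. Rims1, a scaffold of the presynaptic active zone, had 0.106 CPM in iKO and 2.19 CPM in Ctrl at day 3, and was 20.6-fold lower (5.39 to 176) in iKO. That iKO level lay under the floor of 3 counts (0.159 CPM). The 2 higher ones were Sytl4, a synaptotagmin-like Rab27 effector, with 4.45 CPM in iKO and 1.54 CPM in Ctrl at day 3 (2.89-fold, 1.89 to 4.51), and Rph3al, the rabphilin-like protein Noc2, with 5.51 CPM in iKO and 2.04 CPM in Ctrl (2.70-fold, 1.87 to 3.98).

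At day 0 none of the 9 effectors was past 2-fold between genotypes, where 2.67% of all genes were higher and 0.331% lower. Their median was 0.33, the highest being Sytl2 (0.79) and Rph3al (0.42) and the lowest Rims4 (-0.81) and Rims3 (-0.55). Between day 3 and day 0, 2 were higher and 2 lower in iKO, beside 11.2% and 11.4% of all genes. In Ctrl 3 were higher and 1 lower, beside 14.6% and 15.1% of all genes. Myrip, which links Rab27a on granules to myosin motors, had 17.3 CPM in iKO and 8.66 CPM in Ctrl at day 3, and 2.29 CPM in iKO and 1.62 CPM in Ctrl at day 0. Its day 3 level was 7.56-fold that of day 0 in iKO (5.597 to 10.4) and 5.33-fold in Ctrl (3.66 to 7.99). Rims4 was the lowest in both, with log2 ratios of -1.97 in iKO and -1.44 in Ctrl.

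Genes that regulate the Rab3 and Rab27 cycle formed the next list, with Rab3ip, which encodes a Rab3-interacting protein. Of 16 such genes, among them exchange factors, activating proteins and prenylation enzymes, 15 had a mean of at least 1 CPM. In iKO against Ctrl at day 3, 0 were higher and 1 lower, beside 6.27% and 4.76% of all genes, with a median of 0.03. The lower one was Madd, an exchange factor for Rab3 and Rab27, with 28.8 CPM in iKO and 64.8 CPM in Ctrl at day 3, and 35.2 CPM in iKO and 37.8 CPM in Ctrl at day 0. It was 2.25-fold lower (2.03 to 2.49) in iKO at day 3. Rab3il1, another exchange factor, had the highest ratio at day 3 (0.78), and Rab3gap2, a subunit of the Rab3 activating protein, the second lowest (-0.29). At day 0 none was past 2-fold, with Rab3ip lowest (-0.43) and a median of -0.06, beside 2.67% of all genes higher and 0.331% lower. Between the days, 1 was higher in iKO at day 3 (Rab3il1, 1.31) and 0 lower, beside 11.2% and 11.4% of all genes. In Ctrl 0 were higher and 2 lower, beside 14.6% and 15.1% of all genes. The 2 were Rabggtb (-1.39), the catalytic subunit of geranylgeranyl transferase, and Rab3ip (-1.15).

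Among 32 genes of the fusion machinery (SNARE proteins, synaptotagmins and their partners), 30 had a mean of at least 1 CPM. At day 3, 1 was higher and 2 were lower in iKO than in Ctrl, with a median of -0.13, beside 6.27% and 4.76% of all genes. Vamp8, a vesicle SNARE of granules and endosomes, had 7.47 CPM in iKO and 1.99 CPM in Ctrl at day 3, and 3.67 CPM in iKO and 1.48 CPM in Ctrl at day 0, and was 3.76-fold higher (2.63 to 5.48) in iKO at day 3. Snap25, the neuronal plasma membrane SNARE and also one of the 8 neuronal markers, had 5.83 CPM in iKO and 16.6 CPM in Ctrl at day 3, and 10.1 CPM in iKO and 9.64 CPM in Ctrl at day 0, and was 2.85-fold lower (2.29 to 3.57) in iKO at day 3. The other lower gene was Unc13a (-1.02), a priming factor. At day 0 none of the 30 was past 2-fold, where 2.67% of all genes were higher and 0.331% lower. The median was 0.17, with Vamp8 (0.92) and Cadps (0.79) at the top and Syt7 (-0.64) and Stxbp5 (-0.39) at the bottom. Between the days, 2 were higher and 1 lower in iKO at day 3, led by Vamp1 (1.22) and with Syt4 (-1.26) lowest. In Ctrl 3 were higher and 1 lower, led by Vamp1 (1.82) and with Syt7 (-1.78), a calcium sensor of slow release, lowest. The shares of all genes higher and lower between the days were 11.2% and 11.4% in iKO, and 14.6% and 15.1% in Ctrl.

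The last list held vesicle proteins and the cargo and processing enzymes of granules. Of 20 such genes, 16 had a mean of at least 1 CPM, and in iKO against Ctrl 1 was higher and 5 were lower at day 3 (median -0.27), while 3 were higher and 0 lower at day 0 (median 0.55). The shares of all genes higher and lower were 6.27% and 4.76% at day 3, and 2.67% and 0.331% at day 0. Scg2, which encodes the granule protein secretogranin II, had 1.17 CPM in iKO and 17.96 CPM in Ctrl at day 3, and 3.40 CPM in iKO and 1.03 CPM in Ctrl at day 0. It was 15.4-fold lower (10.01 to 24.9) in iKO at day 3 and 3.29-fold higher (2.002 to 5.62) at day 0, the same order of signs as Rab3c. Pcsk2, a prohormone convertase, had 0.530 CPM in iKO and 7.96 CPM in Ctrl at day 3 and was 15.0-fold lower (7.96 to 31.9) in iKO. Chgb, which encodes chromogranin B, had 11.3 CPM in iKO and 32.0 CPM in Ctrl at day 3, and 13.3 CPM in iKO and 4.72 CPM in Ctrl at day 0. The gene that was higher in iKO at day 3 was Sv2b, a synaptic vesicle glycoprotein, with 3.23 CPM in iKO and 0.298 CPM in Ctrl (10.8-fold, 4.70 to 30.7).

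Between the days, 3 of the 16 were higher and 3 lower at day 3 in iKO (median -0.13), beside 11.2% and 11.4% of all genes. In Ctrl 9 were higher and 1 lower (median 1.23), beside 14.6% and 15.1% of all genes. In iKO the highest were Cpe (1.87), a carboxypeptidase of granules, and Scg3 (1.47), and the lowest Vgf (-1.66) and Syn1 (-1.19). In Ctrl the highest were Scg2 (3.22) and Chgb (2.53), and the lowest Vgf (-1.14) and Slc18a2 (-0.33). For the iKO to Ctrl log2 ratio at day 3 minus that at day 0, 1 was past 1 (Sv2b, 1.01) and 7 were past -1, with Scg2 at -4.24 and Chgb at -2.74. The shares of all genes for this difference were 3.71% and 5.5%. The sum of this list was 3041 CPM in iKO and 2384 CPM in Ctrl at day 3, and 1072 CPM in iKO and 702.3 CPM in Ctrl at day 0. Most of it was Cpe, with 2366.5 CPM in iKO and 1604.6 CPM in Ctrl at day 3. At day 0 Cpe had 645 CPM in iKO and 399 CPM in Ctrl. The part of neuronal content in the values of this list was not tested.

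**Figure D4:**
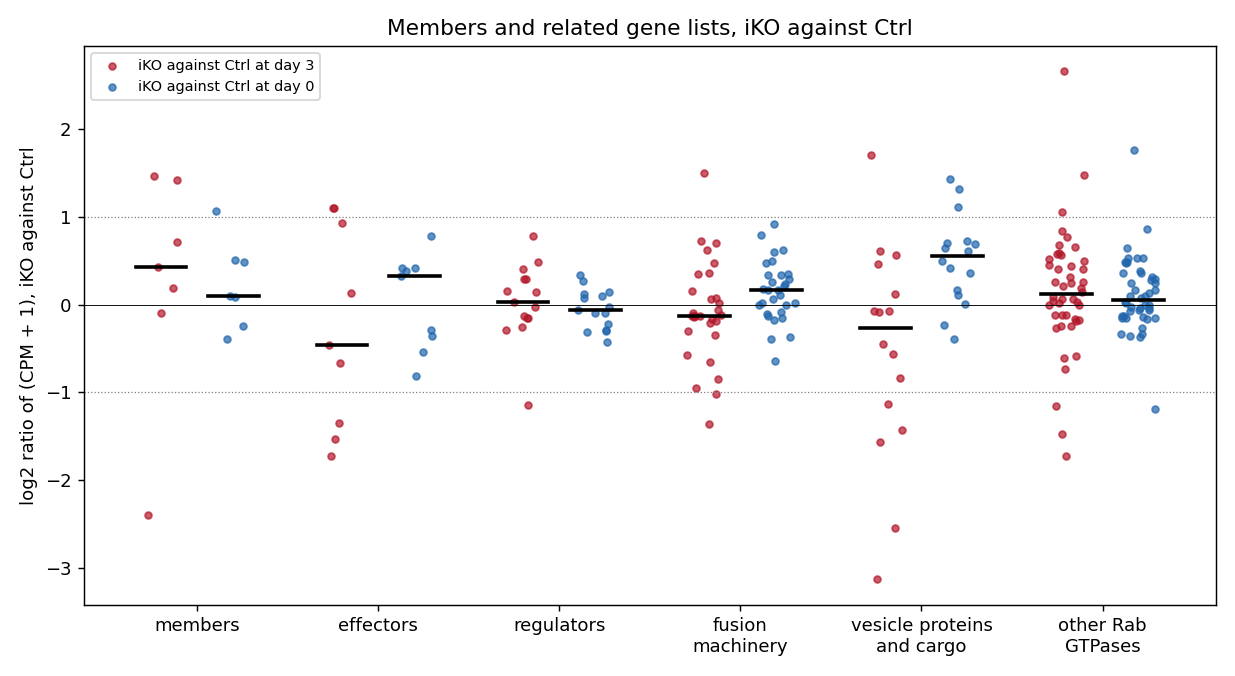
Log2 ratio of (CPM + 1) of iKO to Ctrl (y axis) for the 7 members compared, the 4 gene lists and the other Rab genes. Each point is 1 gene at day 3 (red) or day 0 (blue), black bars are medians, and dotted lines mark 2-fold. The vesicle proteins and cargo have medians of -0.27 at day 3 and 0.55 at day 0.

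The genes whose pattern over the 4 libraries was most like that of each of the 3 most variable members were found by the root mean square distance between log2(CPM + 1) values, each centred on the gene's own mean. For Rab26 the nearest were Angpt2, which encodes angiopoietin 2 (distance 0.21), and Dhh, which encodes desert hedgehog (0.37), followed by Col18a1 (0.64), Arc (0.67) and Anxa3 (0.70). Angpt2 had 1.80 CPM in iKO and 0.199 CPM in Ctrl at day 3, and 98.0 CPM in iKO and 76.7 CPM in Ctrl at day 0. Rab3b was the 20th nearest gene to Rab26, at a distance of 1.03. For Rab3b the nearest were the prokineticin receptor gene Prokr1 (0.052) and the cyclin D1 gene Ccnd1 (0.18), followed by Chrm3 (0.31), Lgals1 (0.33) and Akap12 (0.33). Ccnd1 had 312 CPM in iKO and 154 CPM in Ctrl at day 3, and 3217 CPM in iKO and 2691 CPM in Ctrl at day 0. For Rab3c they were Dmrtb1 (0.32), Bcl11b (0.33), Atp10b (0.35), Gdap1 (0.35) and Lzts1 (0.36). The transcription factor gene Bcl11b had 1.96 CPM in iKO and 16.2 CPM in Ctrl at day 3, and 8.35 CPM in iKO and 7.38 CPM in Ctrl at day 0. With 4 libraries such distances are a description only, and the added 1 CPM understates the ratios of low genes such as Prokr1. Prokr1 had 3.87 CPM in iKO and 0.647 CPM in Ctrl at day 3, and 49.1 CPM in iKO and 34.3 CPM in Ctrl at day 0.

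**Figure D5:**
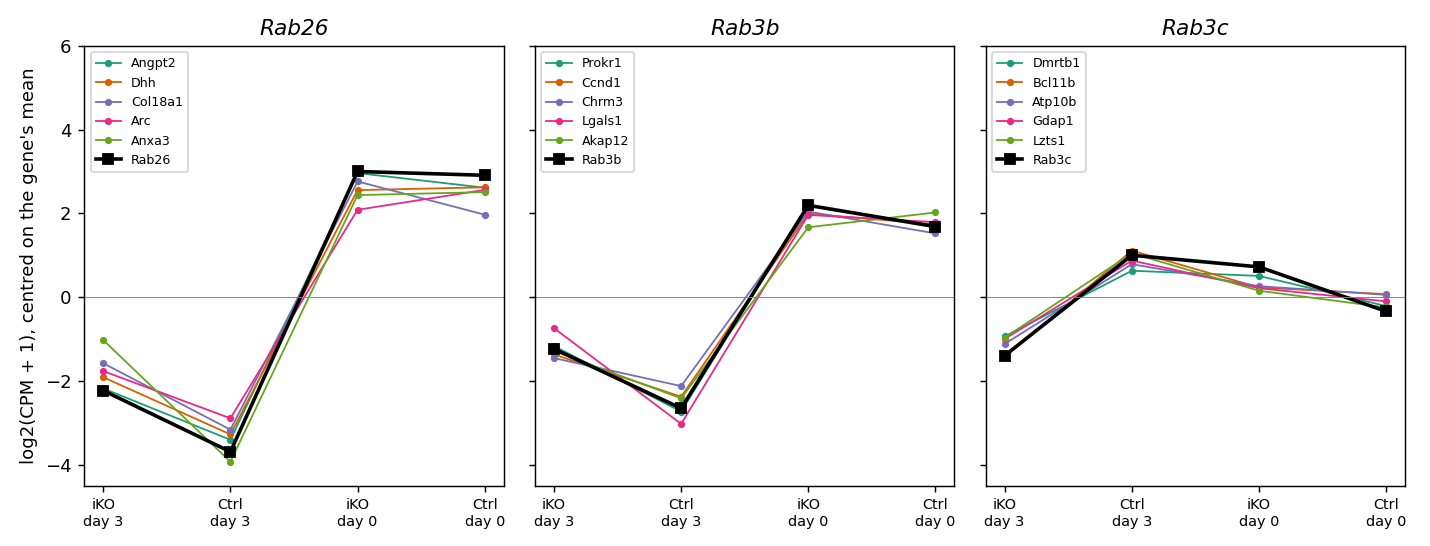
Centred log2(CPM + 1) (y axis) of Rab26, Rab3b and Rab3c (black squares) and of the 5 genes nearest to each (coloured points) in the 4 libraries (x axis). Lines join values of 1 gene. Rab26 and Rab3b are high in both day 0 libraries, and Rab3c is lowest in the day 3 iKO library.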

How the data were processed

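Libraries were made from total RNA with a kit from BGI, per the labels' protocols, 4 in all, and groups were taken from titles and genotype labels. HISAT, Bowtie2, StringTie and mm10 are named without versions, per the submitters' processing notes; the sources used here give neither the tool that made the counts nor the annotation release. The authors deposited an expected count and an expression value for each RefSeq transcript. The unit of the value is not named in the deposited files, and it was taken as FPKM because the median count per FPKM and kilobase (19.7 for iKO and 19.8 for Ctrl at day 3, and 20.7 for iKO and 21.1 for Ctrl at day 0) was close to each library's total divided by 1000000, with a spread between 0.641 and 1.53 of the median over the 5th to 95th percentiles. The deposited tables of differential genes give the authors' log2 ratio of iKO to Ctrl and their FDR, a p-value adjusted for many genes by a method the sources used here do not give.

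The transcripts' expected counts were added up per gene and rounded. TMM scaling used edgeR 4.0.16 under R 4.3.3, and genes averaging 1 CPM or more were compared as log2((CPM1 + 1)/(CPM2 + 1)), which understates the ratios of low genes. A gene was called higher or lower at 2-fold on that scale. Printed folds are CPM ratios with nothing added, with exact conditional (Clopper-Pearson) 95% intervals from scipy 1.17.1. Reads are not independent molecules. Symbols for 17498 gene IDs came from RefSeq (GRCm38.p6, the same build) and for 19 from the authors' tables. The members and gene lists were chosen with earlier results of these data known. The rule for named genes takes, per comparison, 2 genes at each end of a list (3 for other Rab genes), the 5 genes nearest to 3 members, and Seh1l. Not all of these are given, 1 of them is not reported here, and Dcx, Traf7 and Mitf were chosen after their values were seen. Alternatives were library totals, DESeq2 1.42.0 size factors, FPKM with 1 or nothing added, pseudocounts of 0.1 and 5 CPM, no minimum and a minimum of 5 CPM. The ratio code was tested on simulated counts.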

Additional observations from a re-analysis of the deposited data

Results flagged for a closer look

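Rab3c stood below Ctrl in iKO at day 3 (0.901 CPM in iKO and 9.003 CPM in Ctrl) and above it at day 0 (7.25 CPM in iKO and 2.95 CPM in Ctrl), so that its log2 ratios of iKO to Ctrl had opposite signs and differed by -3.46. The difference was not tested, since each group holds 1 library. With FPKM the signs were the same, and the difference was -2.54 with nothing added and -0.97 with 1 FPKM added.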

How the results depend on the processing

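No paired analysis was possible because each group holds 1 library, and for the same reason no library could be left out. The 35 ratios of the 7 members compared (5 comparisons) were recomputed under library totals, DESeq2 size factors, FPKM with 1 FPKM added, and pseudocounts of 0.1 and 5 CPM. All 175 recomputed values kept their direction, and 160 kept their side of the 2-fold threshold. With 1 FPKM added, which changes both the unit and the weight of the constant, the members called fell to 0 higher for day 3 against day 0 in Ctrl (1 with CPM), 0 higher in iKO at day 0 (1), 0 lower in iKO at day 3 (1), and 0 higher and 0 lower for the difference between days (1 each). With FPKM and nothing added, an alternative chosen after seeing the data, all 35 values kept their direction and 29 their side of the threshold. Rab3c was then no longer past 2-fold for iKO against Ctrl at day 0 or for day 3 against day 0 in Ctrl, Rab27b was, Rab27a was for iKO against Ctrl at day 3, and 2 members (Rab26 and Rab27a) were higher for the difference between days. With 0.1 CPM added, 2 members were higher for day 3 against day 0 in Ctrl (1 with 1 CPM) and 3 were higher for the difference between days (1). With 5 CPM added, 1 member was higher in iKO at day 3 (2 with 1 CPM), and 0 were higher in iKO at day 0, for day 3 against day 0 in Ctrl, or for the difference between days (1 each). Of all genes in iKO against Ctrl, 813 were higher and 618 lower at day 3, but 430 and 358 with 5 CPM added and 477 higher with 1 FPKM added. At day 0, 347 were higher and 43 lower, but 706 and 80 with 0.1 CPM added, 111 and 13 with 5 CPM added, and 25 lower with library totals and 19 with 1 FPKM added. For day 3 against day 0 in Ctrl, 1894 were higher, but 1213 with 5 CPM added. For the difference between days, 482 and 714 became 230 and 367 with 5 CPM added. The median log2 ratio of all genes moved from -0.06 to 0.06 with library totals for iKO against Ctrl at day 0 (0.05 with 1 FPKM added), from -0.01 to -0.13 for day 3 against day 0 in iKO (-0.12 with 1 FPKM added), and from 0.06 to -0.13 for the difference between days (-0.11 with 1 FPKM added). The median of the effectors for day 3 against day 0 in iKO, 0.56, was -0.10 with a minimum of 5 CPM and -0.03 with no minimum. The cause of these changes was not tested. Counts of 5 to 60 for Rab26, Rab3c and Rab27a in their lowest libraries limit the precision of their ratios.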
